A study of Mus musculus with 29 samples.

Results

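Genomic imprinting is the expression of a gene from only one parental copy, set by DNA methylation laid down in the egg or the sperm and read at control regions that serve whole clusters of genes. Many imprinted genes act on growth: Igf2 is a fetal growth factor, while Grb10, Cdkn1c and the non-coding RNA H19 restrain growth. In the blood-forming system several of them are known for their expression in the most quiescent stem cells. The 10 genes described here were taken by name from a table of 30025 genes, and all 10 were found in it. They are H19, Igf2, Dlk1, Meg3, Grb10, Ndn, Peg3, Mest, Plagl1 and Sgce. They were looked up by name alone, but the list itself was chosen with earlier results of these data known.

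The measurements were RNA-seq levels in 29 libraries from 10 mice, given as FPKM, which is the number of sequenced fragments scaled to exon length and to library size. Mice of the 5A3+/del genotype carried 1 copy of a germ line deletion on chromosome 5, made by Cre recombination in embryonic stem cells and bred onto C57BL/6J; wild-type (WT) littermates were the controls. All mice were 12.42 to 13.85 weeks old, and no mouse received a treatment. From the bone marrow of each mouse, cells with c-kit and Sca-1 but without lineage markers, CD41 or CD48 were sorted by surface CD150. They gave CD150hi hematopoietic stem cells (HSC), CD150lo HSC and CD150neg cells, which the labels call HSC and the study multipotent progenitors (MPP). Each group had 5 mice, except 5A3+/del CD150neg MPP with 4. The 5A3+/del mice carried 1 engineered allele, present in every cell of the animal and not only in blood.

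The libraries held 21229467 to 38797571 fragments, as recovered from the steps in the low FPKM values. The 10 tested genes lying between Fbxl13 and Srpk2, the genes at the deletion's ends, had a median level in 5A3+/del mice that was 54.2% of WT in CD150hi HSC, with 54.5% for CD150lo HSC and 45.6% for CD150neg MPP. Single genes among the 10 ranged from 4.97% to 98.1% in CD150hi HSC, 33.9% to 83.8% in CD150lo HSC and 14.3% to 108.8% in CD150neg MPP, so not each of them was lower. Slamf1, which encodes CD150 and was used for the sort, averaged 14.4 FPKM in WT CD150hi HSC, 1.62 FPKM in CD150lo HSC and 0.146 FPKM in CD150neg MPP. Markers of stroma and mature blood cells are given beside the last results. One animal stood apart: the 3 libraries of WT mouse 3 had 234 to 319 FPKM of Xist, the RNA of the inactive X chromosome, against at most 0.470 FPKM in all other libraries, and its summed level of 4 Y-linked genes was at most 0.124 FPKM against at least 51.4 FPKM. Results are given with and without that mouse where it changed a call. FPKM counts both parental copies together, so these values do not show which copy was read. In bulk RNA of sorted cells, fewer expressing cells and less RNA per cell cannot be told apart.

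The genes lie in different imprinted clusters, given here by their mm9 positions. H19 (chr7:149761434-149764048, minus strand) and Igf2 (chr7:149836673-149852721, minus strand) are neighbours. Dlk1 (chr12:110691033-110701546, plus strand) and Meg3 (chr12:110779211-110809936, plus strand) share another cluster. Mest (chr6:30673547-30698457, plus strand) and Sgce (chr6:4624350-4697204, minus strand) lie apart on chromosome 6. Peg3 (chr7:6656603-6683132, minus strand) and Ndn (chr7:69493163-69494814, plus strand) lie far from each other and from H19 on chromosome 7. Grb10 is at chr11:11830511-11938686 on the minus strand and Plagl1 at chr10:12810497-12851500 on the plus strand. The exons of Mest share 904 bases with Copg2 on the opposite strand, and those of Meg3 share 1402 bases with other annotated genes. Those of Igf2 share 98 bases with Igf2as and those of H19 share 84 bases with Mir675. Reads from all these stretches cannot be assigned with certainty.

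H19 and Meg3 are also host transcripts of microRNAs, and the hairpins lie inside their annotated exons. The mature sequences are shown because the exon length behind the FPKM of both genes includes these bases. Whether fragments over them were counted for the host gene is not known. The mature RNAs themselves are too short for these libraries. They are from RefSeq on GRCm38.p6, 5′ to 3′, with the seed (bases 2 to 8) in capitals, and no 2 of the 4 seeds are alike.
miR-675-5p, in H19: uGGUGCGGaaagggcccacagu
miR-675-3p, in H19: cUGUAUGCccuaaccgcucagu
miR-770-5p, in Meg3: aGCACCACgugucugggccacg
miR-770-3p, in Meg3: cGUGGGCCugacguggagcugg

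Imprinted genes are regulated through methylated CpG, so the 250 bases before the transcription start are shown for 4 of the genes highest in CD150hi HSC, with each CpG in capitals. They are RefSeq windows on GRCm38.p6, written 5′ to 3′ along the gene, and where a gene has several start sites the window with the most CpG is given. Of the 10 genes, 8 had a window, with 15 windows in all; none was at hand for H19 and Sgce.
Grb10, chr11:12037421-12037670, minus strand: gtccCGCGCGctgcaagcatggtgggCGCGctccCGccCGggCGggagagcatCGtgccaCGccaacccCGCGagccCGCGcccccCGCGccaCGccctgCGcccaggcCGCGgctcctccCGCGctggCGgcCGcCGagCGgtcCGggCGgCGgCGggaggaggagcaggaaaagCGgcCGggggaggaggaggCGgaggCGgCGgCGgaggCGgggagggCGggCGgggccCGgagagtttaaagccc
Igf2, chr7:142658805-142659054, minus strand: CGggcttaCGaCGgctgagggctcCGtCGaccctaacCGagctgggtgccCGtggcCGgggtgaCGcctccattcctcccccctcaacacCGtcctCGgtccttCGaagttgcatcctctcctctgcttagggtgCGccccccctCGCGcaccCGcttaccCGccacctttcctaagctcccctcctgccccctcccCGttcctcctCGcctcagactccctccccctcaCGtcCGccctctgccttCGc
Dlk1, chr12:109452573-109452822, plus strand: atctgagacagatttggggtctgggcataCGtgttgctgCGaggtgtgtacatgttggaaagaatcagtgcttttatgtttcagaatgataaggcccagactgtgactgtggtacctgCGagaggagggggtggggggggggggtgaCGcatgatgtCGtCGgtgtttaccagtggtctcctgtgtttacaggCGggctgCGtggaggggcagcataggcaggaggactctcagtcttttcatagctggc
Meg3, chr12:109540746-109540995, plus strand: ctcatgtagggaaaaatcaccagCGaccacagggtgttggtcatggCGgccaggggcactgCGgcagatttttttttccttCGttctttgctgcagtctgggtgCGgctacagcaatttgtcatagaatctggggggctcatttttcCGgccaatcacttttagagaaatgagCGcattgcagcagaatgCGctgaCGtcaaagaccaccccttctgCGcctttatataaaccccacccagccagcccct

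The Grb10 window held 40 CpG, more than 98.7% of the 32851 windows of this length. The Igf2 window held 22, the Meg3 window 10 and the Dlk1 window 8, against a median of 6 over all windows. Taking the richest window of a gene raises its count in this comparison. The windows not shown held 8 CpG for Grb10, 10, 6 and 1 for Igf2, and 0 for Meg3. The letters TGCCGC, the core bound by ZFP57 when methylated, were looked for on both strands and stood in 8.68% of all windows. They were present in 1 window of Meg3, in that of Plagl1 and in 2 overlapping windows of Mest. The letters GGGGCCCC, part of the site bound by PLAGL1 itself, stood in 0.889% of all windows and in that of Peg3. These matches describe the letters only, since methylation was not measured here.

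FPKM is a level per length, so the genes can be ordered within a population, though the order rests on the length used. That length was all annotated exons of a gene together, 18089 bases for Meg3 and 2372 bases for H19. Over the WT CD150hi HSC libraries Meg3 had 4401 fragments and H19 had 855. In WT CD150hi HSC, Grb10 had the highest mean at 18.5 ± 1.99 FPKM (SD, n = 5), followed by Ndn at 10.3 ± 3.54 FPKM and Sgce at 8.25 ± 1.16 FPKM. H19 at 2.43 ± 1.70 FPKM, Igf2 at 2.25 ± 0.930 FPKM, Meg3 at 1.73 ± 0.390 FPKM and Mest at 1.22 ± 0.572 FPKM came next. Grb10 did not overlap with Ndn, whereas the ranges of Ndn and Sgce overlapped, as did those of each neighbouring pair from H19 to Mest. Dlk1 averaged 0.711 ± 0.410 FPKM, Plagl1 0.294 ± 0.135 FPKM and Peg3 0.186 ± 0.170 FPKM. The order was another one in WT CD150neg MPP, where Sgce at 5.75 ± 1.90 FPKM and Grb10 at 5.68 ± 0.697 FPKM overlapped, followed by Ndn at 3.60 ± 2.06 FPKM and Mest with a mean of 1.17 FPKM (0.597 to 1.82 FPKM), with the other 6 genes at means of 0.273 FPKM or less.

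**Figure D1:**
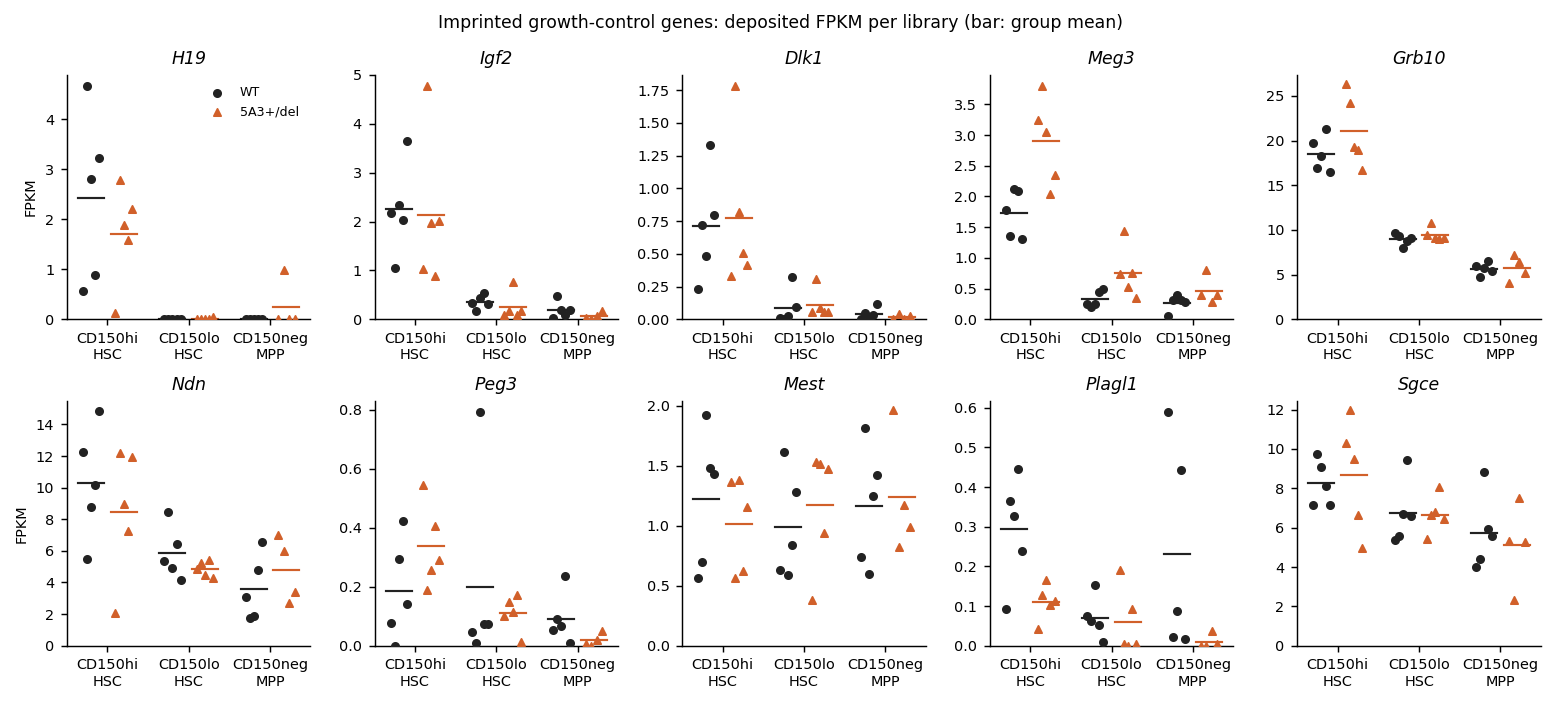
FPKM of the 10 genes in each library, with 1 panel per gene and its own axis from 0; black circles are WT mice, orange triangles 5A3+/del mice and bars group means (n = 5, or 4 for 5A3+/del CD150neg MPP). H19, Igf2, Dlk1, Meg3 and Grb10 were highest in CD150hi HSC in both genotypes, whereas Mest was spread over the same range in all 3 populations.

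The first comparison asked how the 3 sorted populations differ within a genotype. Grb10, H19, Igf2 and Meg3 were higher in CD150hi HSC than in both other populations, in WT and in 5A3+/del mice alike. Dlk1, which was too low for the filter of the main test, had the same direction in every mouse. Ndn was higher in CD150hi HSC than in CD150neg MPP in WT, and Mest did not pass the test in any contrast. Differences were tested with limma on log2(FPKM + 1) after quantile normalization of the 29 libraries, with Benjamini-Hochberg adjustment over the 15409 genes that reached 1 FPKM in at least 4 libraries, and a gene was called at an adjusted p below 0.05. Of the 10 genes, 7 passed this filter. H19 and Igf2 passed it only through CD150hi HSC, with 7 and 9 libraries at 1 FPKM or more, and Meg3 with 10 libraries of CD150hi HSC and 1 of CD150lo HSC, so a gene of this kind had to differ and the number called among the 7 is given as a count only. The added 1 FPKM makes log2 differences of these low genes smaller than the differences of their FPKM.

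Between CD150hi HSC and CD150lo HSC, 4 of the 7 tested genes were called in WT, where 3.53% of all genes were, and 4 of 7 in 5A3+/del, where 3.18% were. Between CD150hi HSC and CD150neg MPP, 5 of 7 were called in WT, against 10.0% of all genes, and 4 of 7 in 5A3+/del, against 6.16%. All of these calls were higher in CD150hi HSC. H19, Igf2 and Meg3, called in each of these contrasts, passed the filter only or mainly through CD150hi HSC. The counts therefore do not show an excess over the shares of all genes. Between CD150lo HSC and CD150neg MPP, 1 of 7 was called in WT, against 0.188% of all genes, and 0 of 7 in 5A3+/del, against 0.0389%. In that last contrast limma called 6 of 15409 genes, and 763 had an unadjusted p below 0.05. The median log2 difference over all genes tested lay between -0.01 and 0.00 in all 6 contrasts. The contrasts with CD150hi HSC share its libraries and are not independent of each other.

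**Figure D2:**
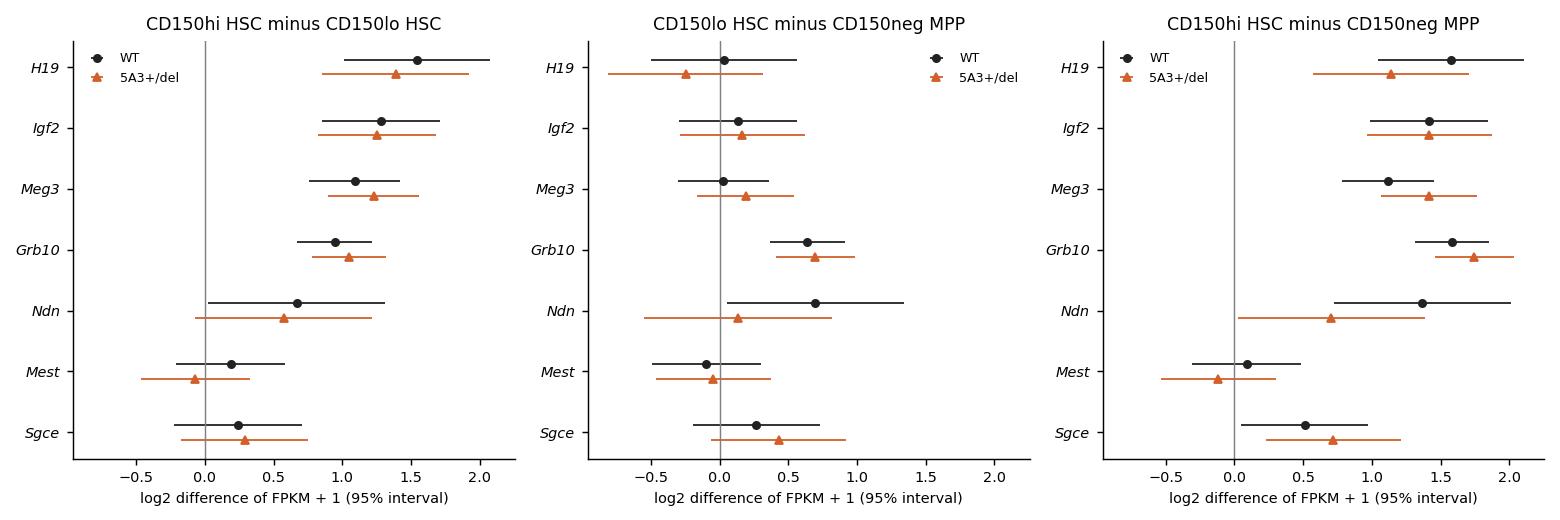
Log2 differences of FPKM + 1 between populations, with 95% intervals from the limma fit, for the 7 genes that passed the filter; black circles are WT and orange triangles 5A3+/del. H19, Igf2, Meg3 and Grb10 lay to the right of 0 in both contrasts with CD150hi HSC, and for CD150lo HSC against CD150neg MPP the intervals of H19, Igf2, Meg3, Mest and Sgce covered 0 in both genotypes.

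Grb10 encodes an adaptor protein that binds the insulin and IGF1 receptors and dampens their signal. In WT CD150hi HSC the 5 mice had 19.7, 16.9, 18.2, 21.3 and 16.5 FPKM, in CD150lo HSC 9.67, 9.36, 7.96, 8.78 and 9.08 FPKM, and in CD150neg MPP 6.01, 4.69, 5.76, 6.56 and 5.39 FPKM. In 5A3+/del mice the values were 26.3, 24.2, 19.2, 18.9 and 16.7 FPKM in CD150hi HSC, 9.38, 10.8, 9.14, 8.95 and 9.13 FPKM in CD150lo HSC, and 4.05, 7.21, 6.37 and 5.23 FPKM in CD150neg MPP. The 3 populations did not overlap in either genotype, and all 9 mice with 3 libraries had the order CD150hi HSC, CD150lo HSC, CD150neg MPP. Without overlap, 2.06% and 2.10% of all tested genes were higher in CD150hi HSC than in CD150lo HSC in WT and 5A3+/del. Against CD150neg MPP these shares were 4.19% and 3.40%. For CD150lo HSC above CD150neg MPP they were 0.707% and 0.740%. CD150hi HSC exceeded CD150lo HSC by 0.95 on the log2 scale in WT (SE 0.13, limma adjusted p = 4.18e-05) and by 1.05 in 5A3+/del (SE 0.13, adjusted p = 7.72e-06). Against CD150neg MPP the differences were 1.58 in WT (SE 0.13, adjusted p = 2.63e-09) and 1.75 in 5A3+/del (SE 0.14, adjusted p = 1.56e-09), which in mean FPKM were ratios of 3.26 and 3.68. The step from CD150neg MPP to CD150lo HSC was 0.64 in WT (SE 0.13, adjusted p = 0.0401) and 0.70 in 5A3+/del (SE 0.14, adjusted p = 0.0793). The WT call of that step is not firm: with the mouse as a block its adjusted p was 0.0686, it was also lost when any 1 of the 5 WT mice was left out (0.0721 to 0.274), and without WT mouse 3 it was 0.165.

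H19 is a maternally expressed non-coding RNA that limits growth, and its level set CD150hi HSC apart from the other populations. In CD150hi HSC of WT mice it had 0.568, 4.66, 2.80, 0.892 and 3.22 FPKM, or 34, 341, 181, 58 and 241 fragments. In 5A3+/del mice it had 0.127, 2.78, 1.88, 1.58 and 2.20 FPKM, or 8, 169, 118, 116 and 177 fragments. All 10 CD150hi HSC libraries thus held H19 fragments, over a wide range. In CD150lo HSC, 2 fragments were found over the 5 WT libraries and 3 over the 5 5A3+/del libraries, and in CD150neg MPP of WT there was none in 5 libraries. In WT the mean level in CD150hi HSC was at least 54.6-fold higher than in CD150neg MPP, taking 3 fragments per library as the limit a count of 0 allows. The exception was CD150neg MPP of 5A3+/del mouse 2, with 0.979 FPKM from 60 fragments, where the other 3 libraries had 0, 0 and 1 fragment. That value lay above the 0.127 FPKM of CD150hi HSC in 5A3+/del mouse 1, so these groups overlapped, but within each of the 9 mice CD150hi HSC was higher. The log2 difference between CD150hi HSC and CD150lo HSC was 1.55 in WT (SE 0.26, adjusted p = 0.000413) and 1.39 in 5A3+/del (SE 0.26, adjusted p = 0.00136). Against CD150neg MPP it was 1.58 in WT (SE 0.26, adjusted p = 0.000119) and 1.14 in 5A3+/del (SE 0.27, adjusted p = 0.00905). The last of these was lost without 5A3+/del mouse 3 (adjusted p = 0.0720), without 5A3+/del mouse 4 (0.0670) and in a fit of the compared groups only (0.0748).

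Igf2, the paternally expressed growth factor next to H19, had the same pattern at a similar level. The WT mice had 2.17, 1.04, 2.35, 2.03 and 3.64 FPKM in CD150hi HSC, 0.166 to 0.540 FPKM in CD150lo HSC and 0.0257 to 0.477 FPKM in CD150neg MPP. The 5A3+/del mice had 1.04, 4.77, 1.97, 0.877 and 2.02 FPKM in CD150hi HSC, 0.0800 to 0.768 FPKM in CD150lo HSC and 0 to 0.174 FPKM in CD150neg MPP. CD150hi HSC did not overlap with either other population in either genotype, though Igf2 passed the filter through these libraries alone. Of all tested genes, 2.06% to 4.19% were higher in CD150hi HSC without overlap in these contrasts. Its log2 difference from CD150lo HSC was 1.28 in WT (SE 0.21, adjusted p = 0.000295) and 1.25 in 5A3+/del (SE 0.21, adjusted p = 0.000376). From CD150neg MPP it was 1.42 in both genotypes (SE 0.21 and 0.22, adjusted p = 2.94e-05 and 8.14e-05), with ratios of mean FPKM of 11.5 and 30.6. CD150lo HSC and CD150neg MPP differed by 0.13 in WT (95% interval -0.30 to 0.56) and 0.16 in 5A3+/del (-0.29 to 0.62). In 1 CD150neg MPP library no Igf2 fragment was found, that of 5A3+/del mouse 2, which was the library with H19.

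Dlk1 encodes a transmembrane protein related to Notch ligands and is expressed from the paternal copy. It had 0.231, 0.722, 0.480, 1.33 and 0.796 FPKM in WT CD150hi HSC and 0.332, 1.78, 0.820, 0.509 and 0.418 FPKM in 5A3+/del CD150hi HSC. Elsewhere it was at or below 0.322 FPKM, and the CD150hi HSC libraries held 33 to 258 Dlk1 fragments where the CD150neg MPP libraries held 0 to 21. With 2 libraries at 1 FPKM it was below the filter, and was compared within mice by an exact two-sided sign-flip permutation test. It was higher in CD150hi HSC than in CD150lo HSC in 10 of 10 mice, by 0.640 FPKM on average (exact p = 0.00195), and higher than in CD150neg MPP in 9 of 9 mice, by 0.748 FPKM (exact p = 0.00391). These are the smallest p-values that 10 and 9 mice allow, and they are among 18 such tests, unadjusted. CD150lo HSC was above CD150neg MPP in 7 of 9 mice, by 0.0764 FPKM (exact permutation p = 0.0820, or 0.0391 without WT mouse 2). Over all alternatives that exact p lay between 0.0391 and 0.164. In a limma fit without the filter, the adjusted p over all 30025 genes was 0.0155 in WT and 0.0207 in 5A3+/del against CD150lo HSC, where 1.56% and 1.50% of genes were called, and 0.00322 and 0.00466 against CD150neg MPP, where 4.82% and 3.00% were called.

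Meg3, the maternally expressed non-coding RNA of the Dlk1 cluster, was higher in CD150hi HSC as well. Its FPKM in WT was 1.78, 1.36, 2.13, 2.09 and 1.30 in CD150hi HSC, 0.202 to 0.496 in CD150lo HSC and 0.0573 to 0.395 in CD150neg MPP. In 5A3+/del it was 3.25, 3.80, 3.05, 2.04 and 2.36 in CD150hi HSC, 0.346 to 1.44 in CD150lo HSC and 0.284 to 0.800 in CD150neg MPP. CD150hi HSC was above both other populations in every mouse, with no overlap between groups. Of all tested genes, 2.06% to 4.19% were higher in CD150hi HSC without overlap in these contrasts. The log2 difference from CD150lo HSC was 1.09 in WT (SE 0.16, adjusted p = 8.96e-05) and 1.23 in 5A3+/del (SE 0.16, adjusted p = 1.51e-05), and that from CD150neg MPP was 1.12 (SE 0.16, adjusted p = 2.19e-05) and 1.42 (SE 0.17, adjusted p = 2.16e-06). As Meg3 is long, 742 to 1760 fragments stood behind each CD150hi HSC value. Dlk1 and Meg3, which are read from opposite parental copies of 1 cluster, were thus both highest in CD150hi HSC, as were Igf2 and H19 of the other cluster.

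**Figure D3:**
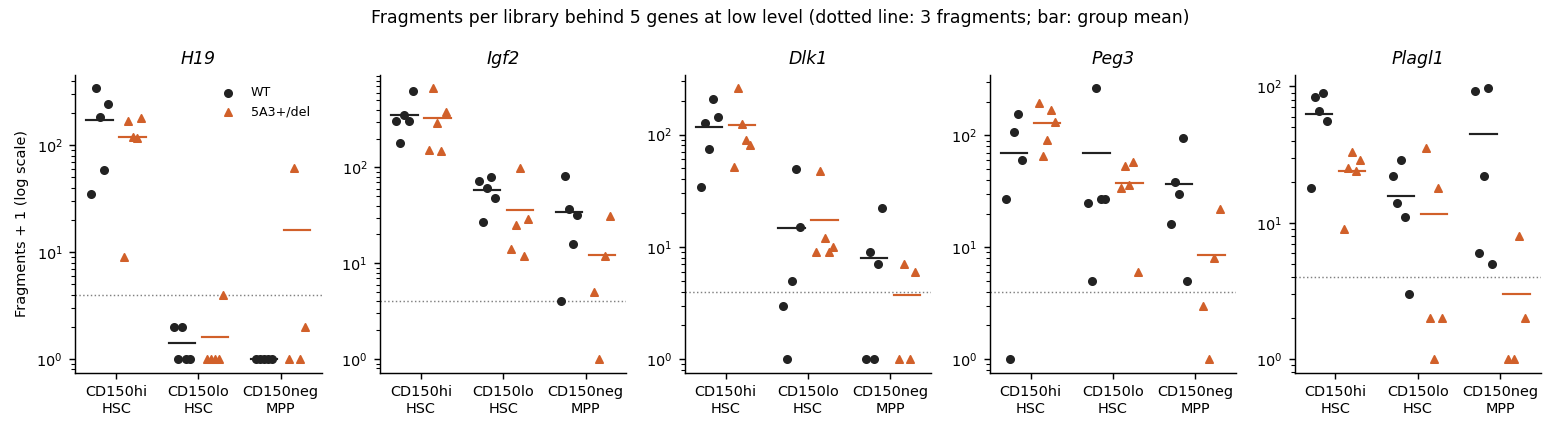
Fragments per library, plus 1 and on a log scale, for H19, Igf2, Dlk1, Peg3 and Plagl1; circles are WT, triangles 5A3+/del, bars group means, and the dotted line marks 3 fragments. H19 lay at or under 3 fragments in 18 of the 19 CD150lo HSC and CD150neg MPP libraries, and at 60 in the other one.

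Ndn encodes necdin, a protein that restrains proliferation and is expressed from the paternal copy. Its WT values were 12.3, 5.47, 8.76, 10.2 and 14.8 FPKM in CD150hi HSC, 5.37, 8.44, 4.94, 6.42 and 4.15 FPKM in CD150lo HSC, and 3.05, 1.74, 1.86, 4.79 and 6.56 FPKM in CD150neg MPP. In 5A3+/del they were 2.05, 12.2, 8.95, 7.26 and 12.0 FPKM in CD150hi HSC, 4.88, 5.26, 4.50, 5.44 and 4.28 FPKM in CD150lo HSC, and 7.01, 5.97, 2.72 and 3.39 FPKM in CD150neg MPP. The groups overlapped in both genotypes. Between CD150hi HSC and CD150neg MPP the log2 difference was 1.37 in WT (SE 0.31, adjusted p = 0.00438) and 0.71 in 5A3+/del (SE 0.33, adjusted p = 0.272), and the difference between these was -0.66 (SE 0.46, adjusted p = 0.754). The 5A3+/del value turned on mouse 1, whose CD150hi HSC had 2.05 FPKM: without that mouse it was 1.19 (adjusted p = 0.0255). Against CD150lo HSC, Ndn in CD150hi HSC was not called in WT (0.67, SE 0.31, adjusted p = 0.328) or in 5A3+/del (0.57, SE 0.31, adjusted p = 0.462).

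Sgce, which encodes epsilon-sarcoglycan of the dystrophin-associated complex, ranged from 2.31 to 12.0 FPKM. In WT its mean was 8.25 ± 1.16 FPKM in CD150hi HSC, 6.73 ± 1.63 FPKM in CD150lo HSC and 5.75 ± 1.90 FPKM in CD150neg MPP (SD, n = 5). In 5A3+/del these means were 8.68 ± 2.82, 6.67 ± 0.953 and 5.10 ± 2.13 FPKM (n = 5, 5 and 4). CD150hi HSC had more than CD150neg MPP in 9 of 9 mice. The log2 difference was 0.51 in WT (SE 0.23, adjusted p = 0.176) and 0.72 in 5A3+/del (SE 0.24, adjusted p = 0.0774), neither of which passed. With the mouse as a block the 5A3+/del value was 0.81 with an adjusted p = 0.0491, and without 5A3+/del mouse 5 it was 0.88 with an adjusted p = 0.0290, while without 5A3+/del mouse 2 it was 0.33 with an adjusted p = 0.590.

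Mest, a paternally expressed gene of the hydrolase fold, ranged from 0.383 to 1.96 FPKM and was not called in any population contrast. Its log2 differences lay between -0.12 and 0.19 with SE of 0.19 or 0.20, and CD150hi HSC had more than CD150neg MPP in 4 of 9 mice. The 95% interval of that contrast was -0.31 to 0.49 in WT and -0.54 to 0.30 in 5A3+/del. CD150lo HSC had less Mest than CD150neg MPP in 5 of 5 WT mice and in 2 of 4 5A3+/del mice. The log2 differences there were -0.10 (95% interval -0.49 to 0.30) and -0.05 (-0.47 to 0.37).

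Peg3 and Plagl1, both paternally expressed zinc finger genes, had no library at 1 FPKM. Peg3 was higher in CD150hi HSC than in CD150neg MPP in 8 of 9 mice, by 0.199 FPKM (exact sign-flip permutation p = 0.0117, unadjusted). Against CD150lo HSC it was higher in 8 of 10 mice (0.107 FPKM, exact permutation p = 0.223), a value that rested on the 264 fragments in CD150lo HSC of WT mouse 3; without that mouse it was 0.175 FPKM (exact permutation p = 0.00781). Between CD150lo HSC and CD150neg MPP the difference was 0.111 FPKM (exact permutation p = 0.199, or 0.0469 without WT mouse 4). Over all alternatives the exact p of Peg3 reached 0.422 for CD150hi HSC against CD150lo HSC. It reached 0.398 for CD150lo HSC against CD150neg MPP. Plagl1 was higher in CD150hi HSC than in CD150lo HSC in 9 of 10 mice, by 0.137 FPKM (exact permutation p = 0.0234), and than in CD150neg MPP in 8 of 9, by 0.0786 FPKM (exact permutation p = 0.363). The second of these turned on WT mouse 1, with 0.588 FPKM in CD150neg MPP, and without it was 0.150 FPKM (exact permutation p = 0.00781). Over all alternatives its exact p reached 0.633. In the limma fit without the filter neither gene was called in any contrast.

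The second comparison asked whether the deletion changed these genes within a population. No gene of the 10 was called in any of the 3 populations. Meg3 had a higher mean in 5A3+/del in all 3, and its difference in CD150hi HSC came nearest to the threshold. Of 15409 genes, limma called 24 (0.156%) for CD150hi HSC, 5 (0.0324%) for CD150lo HSC and 7 (0.0454%) for CD150neg MPP, and 0 of the 7 tested genes in each; at an unadjusted p below 0.05 there were 2018, 1059 and 658 genes. The summed level of mature blood cell markers, given with the marker lists, had a higher median in WT than in 5A3+/del CD150hi HSC, with overlapping ranges, and its part in these values was not tested.

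**Figure D4:**
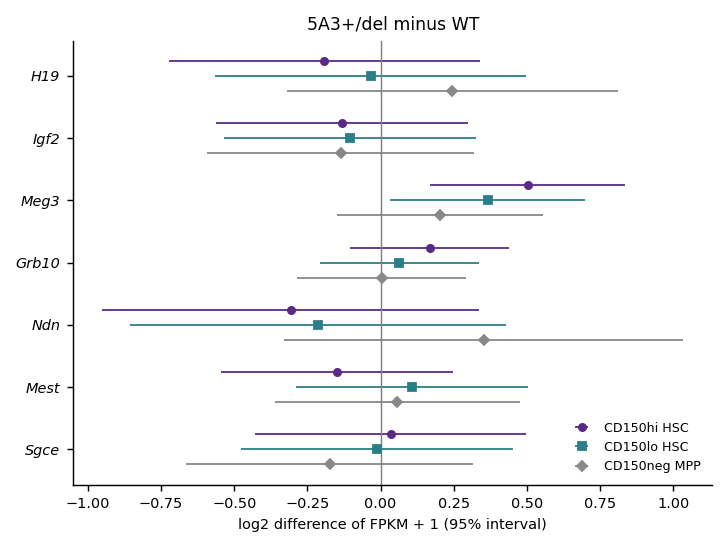
Log2 differences of FPKM + 1 between 5A3+/del and WT mice with 95% intervals from the limma fit, for the 7 genes that passed the filter; circles are CD150hi HSC, squares CD150lo HSC and diamonds CD150neg MPP. Of the 21 intervals, those of Meg3 in CD150hi HSC (0.17 to 0.84) and CD150lo HSC (0.03 to 0.70) did not cover 0.

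In CD150hi HSC, Meg3 averaged 2.90 ± 0.704 FPKM in 5A3+/del and 1.73 ± 0.390 FPKM in WT (SD, n = 5 each). The groups overlapped by 1 value: the lowest 5A3+/del mouse had 2.04 FPKM and the highest WT mice 2.09 and 2.13 FPKM. The log2 difference was 0.50 (SE 0.16, unadjusted p = 0.00451, limma adjusted p = 0.171). It was 0.37 in CD150lo HSC (SE 0.16, unadjusted p = 0.0323, adjusted p = 0.654) and 0.20 in CD150neg MPP (SE 0.17, adjusted p = 1.00). Over all alternatives the adjusted p in CD150hi HSC lay between 0.0647 and 0.493. Rian, a non-coding RNA downstream of Meg3 in the same cluster, averaged 7.06 ± 1.94 and 4.41 ± 1.43 FPKM in CD150hi HSC of 5A3+/del and WT mice, a log2 difference of 0.61 (SE 0.25, adjusted p = 0.304) that did not pass either. Other genes of this region went both ways in these cells. Means in 5A3+/del and WT were 0.844 and 2.02 FPKM for Mirg and 0.634 and 1.74 FPKM for Begain. They were 0.368 and 0.119 FPKM for Rtl1 and 0.772 and 0.711 FPKM for Dlk1.

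For the other genes the intervals give the size of change that the data could still hold. In CD150hi HSC the log2 difference of Grb10 was 0.17 (95% interval -0.10 to 0.44), that of Igf2 -0.13 (-0.56 to 0.30), that of H19 -0.19 (-0.72 to 0.34), and that of Ndn -0.31 (-0.95 to 0.34). Mest had -0.15 (-0.54 to 0.25) and Sgce 0.04 (-0.43 to 0.50). H19 in CD150neg MPP, with 0.25 (-0.32 to 0.81), carried the single 5A3+/del library with 60 fragments. The intervals of H19 and Ndn were the widest of the 7 in this population.

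The 3 genes below the filter were compared between genotypes by exact two-sided permutation tests over mice, whose smallest possible p is 0.00794. Dlk1 differed by 0.0604 FPKM in CD150hi HSC (exact p = 0.833) and Peg3 by 0.150 FPKM (exact p = 0.175). Plagl1 was lower in 5A3+/del CD150hi HSC, with 0.0412, 0.129, 0.166, 0.102 and 0.113 FPKM against 0.0924, 0.365, 0.328, 0.445 and 0.239 FPKM in WT (exact permutation p = 0.0397, unadjusted among the 18 tests). These were 8 to 32 fragments against 17 to 89, and the groups overlapped through WT mouse 1. In the limma fit without the filter its log2 difference was -0.21 with an adjusted p = 0.558, so it was not called.

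Whether the population differences themselves differed between genotypes was tested as an interaction. Limma called 0 of 15409 genes (0.00%) for CD150hi HSC against CD150lo HSC and 0 (0.00%) for CD150hi HSC against CD150neg MPP, with 614 and 1227 genes at an unadjusted p below 0.05. None of the 7 tested genes was among the calls. Against CD150neg MPP the change with genotype was 0.16 for Grb10 (95% interval -0.23 to 0.56), 0.00 for Igf2 (-0.62 to 0.63), 0.30 for Meg3 (-0.19 to 0.78) and -0.44 for H19 (-1.21 to 0.34).

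Other imprinted genes were taken from a list of 52, of which 46 were in the table and 31 were tested. In CD150hi HSC against CD150neg MPP, 5 were higher and 1 was lower in WT, and 4 were higher and 1 was lower in 5A3+/del; over all genes 10.0% and 6.16% were called in these contrasts, in either direction. The median log2 difference of the 31 was 0.21 in WT and 0.19 in 5A3+/del, and that over all genes was -0.01 and -0.00. Rian rose by 1.75 in WT (SE 0.25, adjusted p = 2.43e-05) and 1.68 in 5A3+/del (SE 0.27, adjusted p = 0.000122). Cdkn1c, the cell cycle inhibitor p57, rose by 1.26 (SE 0.26, adjusted p = 0.00179) and 1.31 (SE 0.28, adjusted p = 0.00286), from 5.85 ± 2.27 to 14.5 ± 2.18 FPKM in WT and from 5.41 ± 2.67 to 14.0 ± 3.17 FPKM in 5A3+/del (SD). Airn, the non-coding RNA of the Igf2r cluster, rose by 1.36 (SE 0.27, adjusted p = 0.000962) and 0.96 (SE 0.28, adjusted p = 0.0386). Slc22a3, a cation transporter of the same cluster, fell by 0.90 in WT (SE 0.17, adjusted p = 0.000614) and 0.61 in 5A3+/del (SE 0.18, adjusted p = 0.0398). Phlda2 and Cd81 passed only in WT and Snrpn only in 5A3+/del, and no interaction was called. Against CD150lo HSC 4 were higher and 1 was lower in WT and 2 were higher in 5A3+/del, and between CD150lo HSC and CD150neg MPP, and between genotypes, none of the 31 was called.

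**Figure D5:**
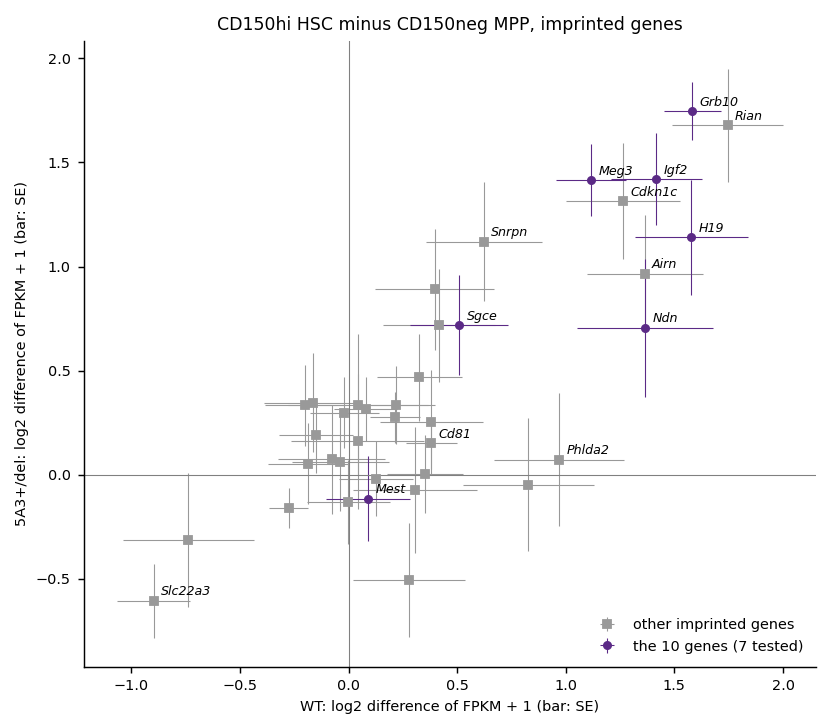
Log2 difference of FPKM + 1 between CD150hi HSC and CD150neg MPP in WT (x axis) and 5A3+/del (y axis), with standard errors, for the 7 tested genes of the 10 (purple circles) and 31 other imprinted genes (grey squares, named where called in either genotype). Grb10, Igf2, H19, Meg3, Rian, Cdkn1c and Airn stand to the upper right, and most of the other imprinted genes lie around 0.

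Of the genes that carry or read the IGF signal, 9 of 16 in the table were tested. In CD150hi HSC against CD150neg MPP, 2 were higher and 1 was lower in each genotype, where 10.0% of all genes in WT and 6.16% in 5A3+/del were called in either direction. Igf1, a growth factor related to Igf2, averaged 3.69 ± 1.31 FPKM in WT CD150hi HSC and 0.256 ± 0.181 FPKM in CD150neg MPP, a log2 difference of 1.84 (SE 0.23, adjusted p = 2.70e-06); in 5A3+/del it was 1.89 (SE 0.25, adjusted p = 6.04e-06). Igf2bp2, an RNA-binding protein named for Igf2 mRNA, differed by 1.81 in WT (SE 0.22, adjusted p = 1.56e-06) and 1.70 in 5A3+/del (SE 0.23, adjusted p = 1.28e-05). Igfbp4, a secreted protein that binds IGFs, was lower by -0.50 (SE 0.15, adjusted p = 0.0364) and -0.61 (SE 0.16, adjusted p = 0.0221). The receptor genes Igf1r, Insr and Igf2r were not called. Igf1r averaged 19.4 to 25.4 FPKM over the groups, and Insr 14.7 to 17.8 FPKM. Against CD150lo HSC, Igf1 and Igf2bp2 were the 2 genes called in both genotypes.

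For the 7 genes that passed the filter, the other tested genes whose levels followed each most closely were looked up. Pearson's r of normalized log2 values over the 29 libraries was used. The ranking left these 7 genes out as partners, so it does not show how closely they followed each other. The libraries share mice and populations, so these r are a description. For Grb10 they were Aldh1a1 (r = 0.960), Apoe (0.949) and Nckap1 (0.947). For H19 they were Bmp4 (0.905), Adck3 (0.895) and 9830001H06Rik (0.863), and for Igf2 they included AA986860 (0.922) and Vwf (0.917). For Meg3 they were Neo1 (0.932), Mllt3 (0.923) and F5 (0.921). Among the ranked genes, Ndn, Sgce and Mest had none above 0.785, 0.741 and 0.700. Aldh1a1, a retinaldehyde dehydrogenase, went from 2.41 FPKM in CD150neg MPP to 6.52 FPKM in CD150lo HSC and 36.6 FPKM in CD150hi HSC, as WT means on the normalized scale.

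Markers of other cells and states were followed beside these differences. The 15 stromal and endothelial markers summed to 14.9 to 29.1 FPKM in CD150hi HSC, 20.8 to 30.7 FPKM in CD150lo HSC and 22.4 to 36.1 FPKM in CD150neg MPP over both genotypes, with 1 of 6 tested genes lower in CD150hi HSC than in CD150neg MPP in WT (Pdgfrb), and 1 higher (Kdr) and 1 lower (Pdgfrb) in 5A3+/del. Among the collagen genes, Col1a1 and Col3a1 stayed at or below 0.808 FPKM in every library, while Col1a2, which was not tested, reached 1.26 FPKM and had means of 0.580 and 0.607 FPKM in CD150hi HSC of WT and 5A3+/del mice against 0.142 and 0.108 FPKM in CD150neg MPP. The 17 mature blood cell markers summed to 284 to 948 FPKM in CD150hi HSC of WT mice (median 479 FPKM) and 224 to 341 FPKM in those of 5A3+/del mice (median 259.7 FPKM). They summed to 209 to 1509 FPKM in CD150lo HSC and 235 to 499 FPKM in CD150neg MPP over both genotypes. S100a8 and S100a9, which encode abundant proteins of neutrophils, averaged 169 ± 182 and 124 ± 85.2 FPKM in WT CD150hi HSC and 17.8 ± 25.3 and 17.4 ± 21.1 FPKM in 5A3+/del CD150hi HSC (SD, n = 5), and neither was called between genotypes (limma adjusted p = 0.189 and 0.187). Of their 11 tested genes, Klrb1c was higher and Itgam lower in CD150hi HSC than in CD150neg MPP in both genotypes, and Cd4 was lower in 5A3+/del. The part of these markers in the results was not tested. Of 11 stem and progenitor genes, 4 were higher in CD150hi HSC than in CD150neg MPP (among them Slamf1 and Fgd5) and 3 lower (Cd34, Flt3, Cd48) in both genotypes. None of 10 cell cycle genes was called in any contrast; their median log2 difference between CD150hi HSC and CD150neg MPP was -0.32 in WT and -0.42 in 5A3+/del.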

How the data were processed

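The values are FPKM per gene that the authors deposited for 29 libraries. Per the methods of the study, 10 ng of RNA was amplified with the NuGEN Ovation kit and sequenced in pairs; the submitters' processing notes name mm9, Bowtie 0.12.2 and HTSeq. Whether counting used strand is not given in the sources used here. Amplification and mitochondrial ribosomal RNA, 20.7% to 31.4% of fragments, set the share left for low genes. Fragments were recovered by dividing FPKM by what 1 fragment is worth given the gene's exon length (GENCODE M1), and 98.0% to 98.6% of low values came out whole within 0.02. Floors of 3 fragments cover counting error only; the 95% intervals are from limma and rest on the spread between mice. The limma fit (limma 3.58.1, R 4.3.3) used quantile normalized log2(FPKM + 1), with 6 group means. The study also used quantile normalization and limma, but on the mean coverage of the exon with the most coverage and with another filter on low genes. The test was checked on simulated data. Genes below the filter had exact permutation tests (Python 3.11.15). Same-mouse libraries of different populations pair by design (median r of deviations 0.08 against -0.03 for different mice); replicate numbers do not pair the genotypes. The named genes were the 10 genes and, from each other list, the at most 5 called genes with the largest change. The IGF receptor genes and the collagen and S100 genes given by level were named after their values were seen. So were the genes set beside Meg3 in the comparison of genotypes. Some genes under this rule are not reported here. The 10 genes and the lists were chosen with earlier results of these data known. Replicates are separate mice.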

Additional observations from a re-analysis of the deposited data

Results flagged for a closer look

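In 60 groups of 4 or 5 libraries, 1 library stood apart from the rest of its group by Dixon's criterion in 8, where chance alone gives about 3. No population difference was shown to differ between genotypes by the interaction test.

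H19 had 0.979 FPKM (60 fragments) in CD150neg MPP of 5A3+/del mouse 2, against at most 0.0134 FPKM in the other 3 mice, and 0.0440 FPKM (3 fragments) in CD150lo HSC of 5A3+/del mouse 5, where the other 4 mice had 0. Igf2 had 0.768 FPKM (97 fragments) in CD150lo HSC of 5A3+/del mouse 3, against 0.0800 to 0.177 FPKM in the others. Dlk1 had 0.322 FPKM (48 fragments) in CD150lo HSC of WT mouse 4, against 0 to 0.0918 FPKM, and 0.309 FPKM (46 fragments) in CD150lo HSC of 5A3+/del mouse 2, against 0.0554 to 0.0845 FPKM. Grb10 had 10.8 FPKM (2615 fragments) in CD150lo HSC of 5A3+/del mouse 2, against 8.95 to 9.38 FPKM. Peg3 had 0.790 FPKM (264 fragments) in CD150lo HSC of WT mouse 3, against 0.0106 to 0.0742 FPKM, and Plagl1 had 0.0363 FPKM (7 fragments) in CD150neg MPP of 5A3+/del mouse 3, against 0 to 0.00436 FPKM. In 3 of the 8 cases (H19, Dlk1, Grb10) the library came from 5A3+/del mouse 2.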

How the results depend on the processing

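Of 543 recomputed values for single genes, 522 kept their direction and their side of the threshold, 14 lost the call, 7 gained one and 0 reversed. Only limma results whose unadjusted p was under the threshold in the main fit were recomputed, with the within-mouse tests of Dlk1, Peg3 and Plagl1. Results of Mest and the interactions were not among them, so few reversals could arise. The gains for Dlk1, Peg3 and Plagl1 were unadjusted exact p-values, and those for Ndn and Sgce were limma calls. The log2 differences depended on the pseudocount: with 0.1 in place of 1, H19 in WT CD150hi HSC against CD150neg MPP went from 1.58 to 4.13. The depth limits H19, Dlk1 and Plagl1 outside CD150hi HSC, where 18, 6 and 7 of 19 libraries held 3 fragments or fewer.

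The count of the 10 genes called stayed at 0 in all genotype and interaction contrasts under every alternative. It was 4 or 5 for CD150hi HSC against CD150lo HSC in both genotypes, 5 or 6 against CD150neg MPP in WT and 3 to 5 in 5A3+/del. For CD150lo HSC against CD150neg MPP in WT it fell from 1 to 0 with no normalization beyond the FPKM, in a fit of the compared groups only and with the replicate block, and was 0 to 1 with 1 mouse left out. Blocking on the mouse changed no other call of the 10 genes in the population contrasts but that of Sgce. The replicate numbers of the genotypes share only a number (r of same-numbered deviations -0.03 to 0.08), and a block on them called none of the 10.

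Counts over all genes moved more, and the cause was not tested. Between genotypes in CD150hi HSC, 24 genes became 15 with a pseudocount of 0.1, 75 with no filter, 0 in a fit of the compared groups only, 100 with a variance trend, and 4 to 40 with 1 mouse left out. In CD150lo HSC, 5 became 8, 16, 0 and 31 in the same order, 8 with the replicate block, and 3 to 77 with 1 mouse left out. In CD150neg MPP, 7 became 4 with no filter, 0 in the compared groups only, 4 with the replicate block, and 3 to 8 with 1 mouse left out. For CD150hi HSC against CD150lo HSC, the compared groups alone gave 291 in place of 544 in WT and 315 in place of 490 in 5A3+/del, and leaving out 1 mouse gave 336 to 628 in WT. Against CD150neg MPP they gave 1022 in place of 1548 and 449 in place of 949. For CD150lo HSC against CD150neg MPP in WT, 29 became 2 with no normalization, 2 in the compared groups only, 64 with a variance trend, 1 with the replicate block, and 0 to 72 with 1 mouse left out. In 5A3+/del, 6 became 0 with a pseudocount of 0.1, 1 with no filter, 0 with no normalization, 0 with median scaling, 0 in the compared groups only, 2 with the replicate block, and 0 to 4 with 1 mouse left out. The interaction of 0 genes became 1 with no filter against CD150lo HSC, and 2 in the compared groups only and 0 to 1 with 1 mouse left out against CD150neg MPP.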
